A study of Mus musculus with 16 samples.

Results

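The genes described here are 37 mouse genes of the MYC and ribosome biogenesis programme, taken from a list of symbols: Myc itself, enzymes and a coactivator of MYC-linked biosynthesis, nucleolar scaffold proteins, subunits of RNA polymerase I, the proteins of small nucleolar ribonucleoproteins (snoRNPs), and assembly factors of the small and large ribosomal subunits. All 37 were matched by Entrez identifier among the 24467 genes listed, and all 37 passed the expression filter that left 15963 genes for testing. They were measured by bulk RNA sequencing in 16 libraries of cancer cells sorted by flow cytometry from pancreatic tumours. Every group came from 1 mouse line of pancreatic ductal adenocarcinoma (PDAC), KPC cells named 7TCF-eGFP/Porcn-DMA after their added constructs, implanted orthotopically, that is, into the pancreas. KPC names a widely used mouse model of PDAC. The 7TCF-eGFP construct places GFP under TCF sites, as a readout of canonical WNT signalling. The labels do not describe Porcn-DMA or the strain, sex and age of the hosts, and there is no untreated or unsorted control. The 4 groups, each with 4 libraries numbered 1 to 4 and each stated to come from 4 mice, are DN (negative for both reporters), GFP (green only, taken as the WNT-responsive cells), mScarlet (red only) and DP (positive for both). The study also names WNT-secreting cells, and mScarlet is the gate left for them, but no label ties the red reporter to WNT secretion in words.

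MYC is a transcription factor that pairs with MAX, binds the E-box CACGTG and raises the output of genes for cell growth. Ribosome production is a large share of that output: RNA polymerase I transcribes the ribosomal RNA (rRNA) precursor in the nucleolus, snoRNPs modify and guide it, and assembly factors fold and cut it into the small and large subunits. In pancreatic cancer, MYC is known to sustain nucleotide, polyamine and protein synthesis.

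Promoter windows from 250 bases before to 50 bases after the transcription start, taken from RefSeq on GRCm38.p6, were listed for 29 of the 37 genes. The palindromic E-box CACGTG, searched for on both strands, was present in the window of 6 of these 29 genes (20.7%): Grwd1, Nop2, Pes1, Mybbp1a, Wdr43 and Utp20. Of the 18317 genes with a listed window, 1681 (9.18%) held it. The windows of Grwd1, Nop2 and Pes1 are shown because these 3 genes fell in the mScarlet-positive cells, and that of Nhp2 is shown as a gene that fell and whose window does not contain these letters. They lie at chr7:45830740-45831039 (minus strand), chr6:125131633-125131932 (plus strand), chr11:3963725-3964024 (plus strand) and chr11:51619523-51619822 (plus strand). Each is written 5′ to 3′ in lower case with CACGTG in capitals.
Grwd1: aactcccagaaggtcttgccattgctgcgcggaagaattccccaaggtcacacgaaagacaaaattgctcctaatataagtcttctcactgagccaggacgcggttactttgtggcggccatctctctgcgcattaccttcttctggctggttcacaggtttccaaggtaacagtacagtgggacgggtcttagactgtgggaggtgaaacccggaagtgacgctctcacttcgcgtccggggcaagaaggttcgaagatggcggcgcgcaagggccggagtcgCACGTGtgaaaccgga
Nop2: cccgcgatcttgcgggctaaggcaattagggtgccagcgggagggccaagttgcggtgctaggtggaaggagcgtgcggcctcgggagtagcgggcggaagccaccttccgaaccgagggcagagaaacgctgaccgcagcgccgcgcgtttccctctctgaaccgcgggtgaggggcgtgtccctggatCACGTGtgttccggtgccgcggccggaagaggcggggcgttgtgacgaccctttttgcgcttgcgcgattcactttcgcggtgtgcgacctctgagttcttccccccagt
Pes1: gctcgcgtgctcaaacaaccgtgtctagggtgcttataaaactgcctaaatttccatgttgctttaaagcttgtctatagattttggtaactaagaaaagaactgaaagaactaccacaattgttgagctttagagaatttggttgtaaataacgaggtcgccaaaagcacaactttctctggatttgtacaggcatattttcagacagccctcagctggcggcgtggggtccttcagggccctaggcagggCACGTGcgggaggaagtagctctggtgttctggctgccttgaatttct
Nhp2: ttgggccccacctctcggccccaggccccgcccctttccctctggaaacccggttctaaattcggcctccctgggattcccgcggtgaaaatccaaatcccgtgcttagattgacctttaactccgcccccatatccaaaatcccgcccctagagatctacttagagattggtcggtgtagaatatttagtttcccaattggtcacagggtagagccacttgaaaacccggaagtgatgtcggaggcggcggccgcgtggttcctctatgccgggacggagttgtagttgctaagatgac
The E-box began 34 bases after the start in Grwd1, 60 bases before it in Nop2 and 2 bases after it in Pes1. In Grwd1 the start used by the window lies within the gene, downstream of its 5′ end at 45830994. Of the other genes that fell, Odc1, Rrp9, Noc4l, Nip7 and Ppan had a listed window without CACGTG. Srm and Tcof1 also fell and had no listed window. Mybbp1a, Wdr43 and Utp20, which held the E-box, were not called lower in the mScarlet-positive cells in the main fit. Whether CACGTG goes with a fall was not tested.

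Library totals ran from 80647185 to 104273669 counts, so that 3 counts, the floor used for a count of 0, were worth 0.0288 to 0.0372 CPM (a library's counts scaled to a fixed total). Levels below are CPM scaled by TMM, a correction for library composition, and the 4 libraries of a group held at least 1868 counts of each member. The pancreatic cancer epithelium markers were at a summed 16100 to 45400 CPM over the libraries, and none of the 10 was at 0 throughout. Of the 10, 3 were at 0 in at least 1 library, and at least 7 had counts in each library. Other cells were present in some libraries: the 10 macrophage markers summed to 34500 CPM in GFP library 1 and to between 207 and 10100 CPM in the other 15, and the 10 acinar markers summed to 24500 CPM in GFP library 4 and to between 44.8 and 2320 CPM elsewhere. The 10 fibroblast markers also peaked in GFP library 4, at 9150 CPM. In these GFP libraries the label of cancer cells is met in part: the epithelium markers summed to 16100 CPM in library 1, below the macrophage sum, and to 25500 CPM in library 4, below the acinar and fibroblast sums together.

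Some of the members were lower in the sorted cells that carried mScarlet, led by Srm, and the others were not called. Averaged over both GFP states (mScarlet and DP against DN and GFP, 8 libraries against 8), 11 of 37 members (29.7%) fell and none rose at an edgeR adjusted p under 0.05, while 5.21% of all tested genes fell and 8.73% changed in either direction. The 11 were the polyamine enzymes Srm and Odc1, the nucleolar protein Tcof1, the snoRNP proteins Rrp9 and Nhp2, the small subunit factor Noc4l, and the large subunit factors Pes1, Nop2, Nip7, Ppan and Grwd1. The log2 fold change was negative for 35 of 37 members, against 52.1% of all genes, and its median was −0.32, against −0.02 for all genes. Myc missed the threshold in this fit and passed it with the library number as a block (adjusted p = 0.0107 by edgeR). For the difference between GFP-positive and GFP-negative cells, no member was called in either direction, and 31 of 37 had a negative value, against 49.1% of all genes. In bulk samples, fewer expressing cells and less RNA per cell cannot be told apart.

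**Figure D1:**
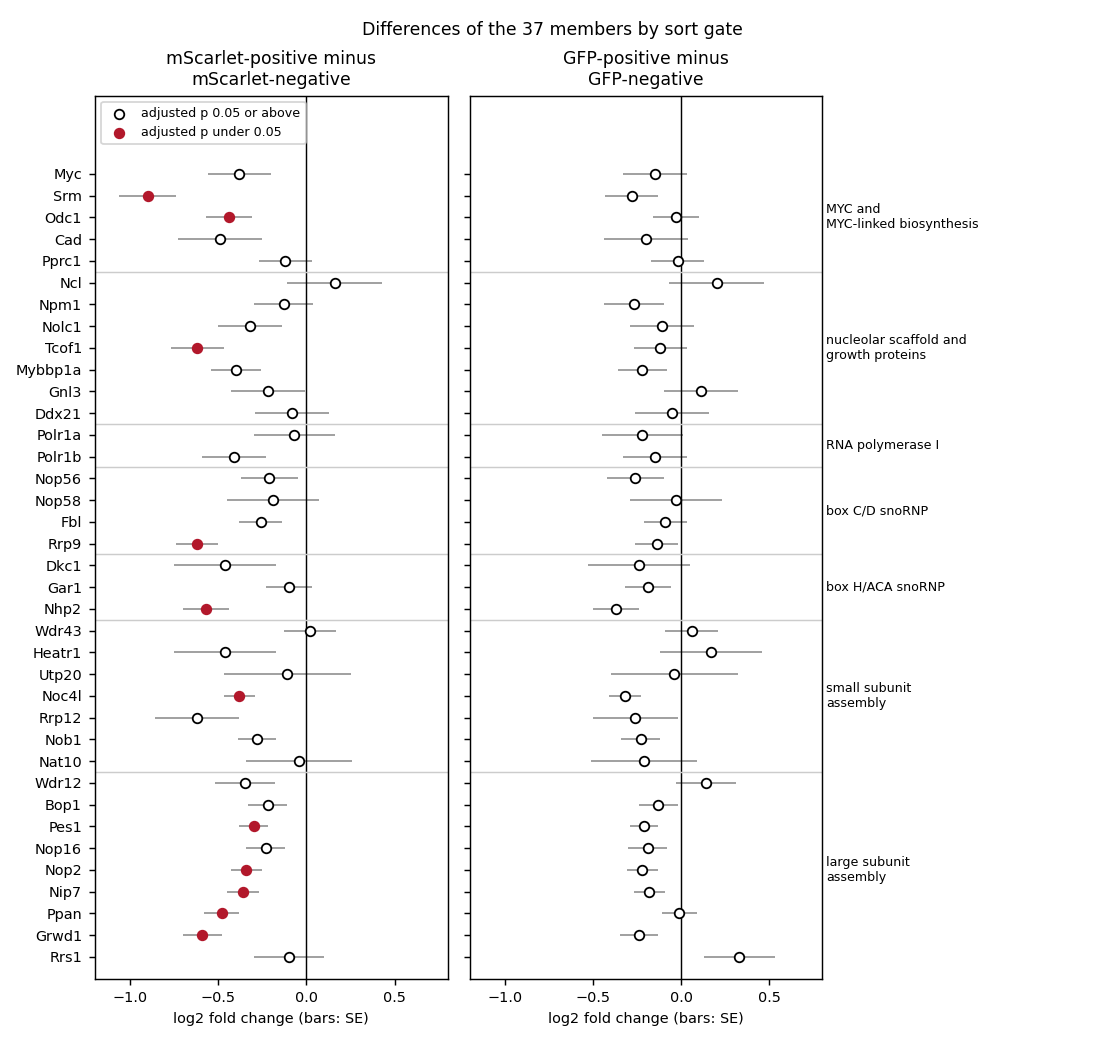
Log2 fold change of each of the 37 members, grouped by role, for mScarlet-positive minus mScarlet-negative cells (left) and GFP-positive minus GFP-negative cells (right), each over 8 against 8 libraries. Bars are standard errors; the 11 filled points on the left passed the edgeR threshold, and none did on the right.

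Among Myc and the enzymes of MYC-linked biosynthesis, 2 of 5 members fell in mScarlet-positive cells and all 5 had a negative log2 fold change (median −0.44). Srm, spermidine synthase (Entrez 20810, chromosome 4 from 148591513 to 148594619 in GRCm38, plus strand), showed the largest difference of all 37. Srm was at 170, 106, 93.6 and 101 CPM in DN libraries 1 to 4 and 139, 72.2, 67.2 and 85.6 in GFP, against 59.7, 51.6, 61.9 and 64.2 in mScarlet and 51.2, 49.1, 53.9 and 53.4 in DP. Every mScarlet and DP library lay below every DN and GFP library, and the DP libraries spanned only 49.1 to 53.9 CPM. Its level over both comparisons was 0.536 times that of the mScarlet-negative cells (log2 fold change −0.90, SE 0.16, adjusted p = 0.00276 by edgeR), and it was called in all 26 alternative fits (adjusted p 3.19e-06 to 0.00808). Odc1, ornithine decarboxylase, makes the putrescine that spermidine synthase uses and is the rate-limiting enzyme of the polyamine route (Entrez 18263, chromosome 12 from 17544808 to 17551502, plus strand). Odc1 was at 139, 106, 110 and 103 CPM in DN libraries 1 to 4 and 137, 98.6, 88.4 and 106 in GFP, against 62.5, 77.6, 72.7 and 110 in mScarlet and 75.8, 84.5, 71.7 and 100 in DP. The groups overlapped, and mScarlet library 4 and DP library 4 lay within the range of the mScarlet-negative libraries. Odc1 was close to the threshold (log2 fold change −0.44, SE 0.13, adjusted p = 0.0485 by edgeR). It kept its call in 12 of 26 alternative fits (adjusted p 0.0103 to 0.183) and lost it without any 1 of 12 libraries, namely all but GFP 2, GFP 3, mScarlet 4 and DP 4 (0.0563 to 0.101).

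Myc (Entrez 17869, chromosome 15 from 61985341 to 61990361, plus strand) was not called between any groups when the library number was left out of the model. Myc was at 123, 159, 165 and 114 CPM in DN libraries 1 to 4 and 92.4, 153, 157 and 99.3 in GFP, against 84.5, 101, 145 and 99.0 in mScarlet and 77.0, 117, 130 and 63.1 in DP. The spread within each group was wide and the groups overlapped, with library 3 the highest in all 4. The means were 140 ± 25.4 CPM in DN and 126 ± 34.5 in GFP, against 107 ± 26.1 in mScarlet and 96.8 ± 31.8 in DP (SD, n = 4). Within the same library number, Myc was lower in the mScarlet-positive library in 8 of 8 pairs (mScarlet against DN, DP against GFP). Over both comparisons the log2 fold change was −0.38 (SE 0.18, adjusted p = 0.199 by edgeR), with a 95% interval from −0.76 to 0.00. With the library number as a block the value was −0.39 (adjusted p = 0.0107 by edgeR). Cad, which carries out the first steps of pyrimidine synthesis (Entrez 69719, chromosome 5 from 31054620 to 31078479, plus strand), had the same sign with a wider error. Cad was at 164, 122, 103 and 86.7 CPM in DN libraries 1 to 4 and 154, 81.8, 113 and 54.7 in GFP, against 85.5, 108, 95.7 and 41.1 in mScarlet and 75.3, 85.0, 94.3 and 41.3 in DP. The groups overlapped, and library 4 was the lowest of each group. Its log2 fold change was −0.49 (SE 0.24, adjusted p = 0.233 by edgeR). Pprc1, a coactivator of mitochondrial biogenesis genes, was at group means of 67.3 to 77.6 CPM, with a log2 fold change of −0.12 (SE 0.15).

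Of the 7 nucleolar scaffold and growth proteins, 1 fell and 6 were negative (median −0.22). Tcof1 encodes treacle, which links RNA polymerase I transcription to rRNA modification (Entrez 21453, chromosome 18 from 60813738 to 60848983, minus strand). Tcof1 was at 88.7, 80.1, 77.9 and 80.7 CPM in DN libraries 1 to 4 and 88.0, 59.5, 80.8 and 36.5 in GFP, against 50.8, 48.1, 44.5 and 43.0 in mScarlet and 46.5, 51.6, 61.3 and 36.5 in DP. The DN libraries were tightly grouped and above all mScarlet and DP libraries, whereas GFP library 4 was as low as DP library 4. Its level was 0.649 times that of mScarlet-negative cells (log2 fold change −0.62, SE 0.15, adjusted p = 0.0205 by edgeR), and the call held in all 26 alternative fits (adjusted p 0.00132 to 0.0462). Nucleolin, Ncl (Entrez 17975, chromosome 1 from 86344719 to 86359455, minus strand), a major nucleolar protein that binds the rRNA precursor, was 1 of the 2 members with a positive value. Ncl was at 24.4, 20.3, 16.4 and 36.6 CPM in DN libraries 1 to 4 and 36.2, 54.0, 24.6 and 17.2 in GFP, against 40.8, 32.8, 38.3 and 16.8 in mScarlet and 24.3, 36.0, 48.1 and 17.4 in DP. No group stood apart, and library 4 was the highest in DN and the lowest in the other 3 groups. The log2 fold change of Ncl was 0.16 (SE 0.27, adjusted p = 0.776 by edgeR) and turned to −0.03 with library number and GC content both in the model. Npm1, nucleophosmin, a nucleolar chaperone of ribosome assembly and export (Entrez 18148, chromosome 11 from 33152498 to 33164142, minus strand), gave a different order of groups. Npm1 was at 48.2, 47.1, 40.7 and 70.0 CPM in DN libraries 1 to 4 and 43.7, 45.8, 26.8 and 21.0 in GFP, against 35.6, 32.8, 36.1 and 47.0 in mScarlet and 38.5, 33.0, 37.7 and 46.5 in DP. DN had the highest mean and GFP the lowest, with overlap between all groups (mScarlet-positive against mScarlet-negative: log2 fold change −0.13, SE 0.17, adjusted p = 0.698 by edgeR). Npm1 is known to have processed pseudogenes, and whether they took up reads was not tested. The other 4, Nolc1, Mybbp1a, Gnl3 and Ddx21, had log2 fold changes from −0.40 (Mybbp1a, SE 0.14, adjusted p = 0.0929 by edgeR) to −0.08 (Ddx21).

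The subunits of RNA polymerase I did not pass the test. Polr1a, the largest catalytic subunit (Entrez 20019, chromosome 6 from 71909053 to 71979435, plus strand), showed no difference beyond its spread. Polr1a was at 45.1, 39.3, 39.4 and 31.8 CPM in DN libraries 1 to 4 and 35.3, 52.8, 41.1 and 16.1 in GFP, against 49.6, 42.8, 36.5 and 31.9 in mScarlet and 34.6, 36.2, 42.2 and 14.3 in DP. Library 4 was the lowest of every group, and Polr1a overlapped in all comparisons (log2 fold change −0.07, SE 0.23, adjusted p = 0.894 by edgeR). Its sign was positive without GFP library 2 (0.04) and without DP library 4 (0.03). Polr1b, the other subunit of the catalytic core (Entrez 20017, chromosome 2 from 129100970 to 129128060, plus strand), had a larger negative value. Polr1b was at 53.2, 44.8, 50.6 and 26.1 CPM in DN libraries 1 to 4 and 40.8, 36.8, 44.7 and 20.6 in GFP, against 32.6, 35.3, 25.7 and 25.7 in mScarlet and 29.6, 29.7, 37.6 and 20.9 in DP. The 3 DN libraries other than library 4 lay above all mScarlet and DP libraries, and the 4th did not (log2 fold change −0.41, SE 0.18, adjusted p = 0.177 by edgeR).

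In each snoRNP class, 1 protein fell. Rrp9, a protein of the U3 snoRNP that directs the early cuts of the small subunit rRNA (Entrez 27966, chromosome 9 from 106477309 to 106485415, plus strand), led the box C/D class. Rrp9 was at 74.5, 53.6, 48.6 and 64.5 CPM in DN libraries 1 to 4 and 69.5, 54.6, 41.3 and 64.1 in GFP, against 39.9, 39.8, 40.1 and 45.2 in mScarlet and 32.2, 33.4, 43.2 and 33.9 in DP. The mScarlet libraries other than library 4 lay within 39.8 to 40.1 CPM, and the only overlaps across the mScarlet gate were with GFP library 3. Rrp9 was at 0.652 times the mScarlet-negative level (log2 fold change −0.62, SE 0.12, adjusted p = 0.00713 by edgeR) and was called in all 26 alternative fits (adjusted p 6.11e-05 to 0.0373). The core box C/D proteins were not called. Nop56 was at 110, 78.6, 70.2 and 82.7 CPM in DN libraries 1 to 4 and 79.5, 70.5, 68.1 and 29.7 in GFP, against 60.5, 55, 69.1 and 70.7 in mScarlet and 60.7, 65.8, 62.8 and 56.4 in DP. Nop56, a core scaffold protein (Entrez 67134, chromosome 2 from 130274367 to 130279313, plus strand), was highest in DN and overlapped between all other groups (log2 fold change −0.21, SE 0.16, adjusted p = 0.466 by edgeR). Fbl was at 48.5, 41.3, 42.1 and 46.7 CPM in DN libraries 1 to 4 and 44.0, 34.2, 34.4 and 45.2 in GFP, against 32.0, 30.5, 31.4 and 46.0 in mScarlet and 32.7, 31.2, 32.3 and 44.4 in DP. In Fbl, fibrillarin, the rRNA methyltransferase of the class (Entrez 14113, chromosome 7 from 28168893 to 28179269, plus strand), library 4 stood above the others in mScarlet and in DP, and those libraries lay within the DN range. Without a call (log2 fold change −0.26, SE 0.12, adjusted p = 0.203 by edgeR), Fbl was still lower in the mScarlet-positive library in 8 of 8 same-number pairs. Nop58, the partner of Nop56, was near 7 CPM in all groups (−0.19, SE 0.26).

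Nhp2, a core protein of the box H/ACA snoRNPs that guide pseudouridylation (Entrez 52530, chromosome 11 from 51619773 to 51623718, plus strand), had the highest level per length of all members, at 162 CPM per kilobase of exon. Nhp2 was at 289, 198, 179 and 280 CPM in DN libraries 1 to 4 and 216, 153, 145 and 161 in GFP, against 122, 140, 146 and 179 in mScarlet and 99.5, 141, 117 and 138 in DP. All DN libraries lay above all mScarlet libraries, and all DP libraries lay below all GFP libraries. DN library 3 and mScarlet library 4 were so close that both round to 179 CPM. The log2 fold change was −0.57 (SE 0.13, adjusted p = 0.0156 by edgeR). The call held in 25 of 26 alternative fits and missed the threshold without both GFP libraries 1 and 4 (0.0566). Dkc1, dyskerin, the pseudouridine synthase of the same particle (Entrez 245474, chromosome X from 75095854 to 75109776, plus strand), was expressed at a much lower level and varied more. Dkc1 was at 8.32, 7.34, 7.16 and 12.6 CPM in DN libraries 1 to 4 and 7.03, 8.43, 2.62 and 8.5 in GFP, against 8.73, 2.25, 5.33 and 6.6 in mScarlet and 4.43, 3.86, 6.76 and 6.68 in DP. Its groups overlapped apart from DP and DN, and its log2 fold change was −0.46 with an SE of 0.29 (adjusted p = 0.375 by edgeR). Gar1, the third member of this class in the set, had a log2 fold change of −0.10 (SE 0.13).

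Among 7 small subunit factors, Noc4l alone was called, and 6 were negative (median −0.28). Noc4l, a nucleolar factor needed for small subunit maturation (Entrez 100608, chromosome 5 from 110648419 to 110653382, minus strand), was highest in DN. Noc4l was at 128, 108, 99.8 and 105 CPM in DN libraries 1 to 4 and 97.3, 74.8, 82.3 and 78.5 in GFP, against 79.6, 87.0, 67.0 and 84.9 in mScarlet and 63.7, 74.8, 60.7 and 72.8 in DP. All DN libraries lay above every other library, and GFP overlapped mScarlet. Noc4l was at 0.768 times the mScarlet-negative level (log2 fold change −0.38, SE 0.09, adjusted p = 0.0193 by edgeR). The call was lost in 1 of 26 alternative fits, without both GFP libraries 1 and 4 (0.0724). Rrp12, an export factor of the subunits, had as large a log2 fold change as Rrp9, −0.62, but 2 times its SE (0.24, adjusted p = 0.124 by edgeR), with DN library 1 at 87.1 CPM and DN library 4 at 29.5 CPM. Nob1, the endonuclease of the last rRNA cut, was at −0.28 (SE 0.11, adjusted p = 0.105 by edgeR). Heatr1 (−0.46, SE 0.29), Utp20 (−0.11, SE 0.36), Nat10 (−0.04, SE 0.30) and Wdr43 (0.02, SE 0.15) had intervals that spanned 0, and the signs of Utp20, Nat10 and Wdr43 turned in several alternative fits.

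The large subunit factors held the most calls, with 5 of 9 lower and all 9 negative (median −0.34). Grwd1, a WD-repeat protein of large subunit assembly (Entrez 101612, chromosome 7 from 45825223 to 45830994, minus strand), was the member with the smallest adjusted p after Srm. Grwd1 was at 157, 129, 125 and 129 CPM in DN libraries 1 to 4 and 142, 118, 108 and 109 in GFP, against 92.0, 103, 96.8 and 81.1 in mScarlet and 63.1, 86.9, 91.3 and 61.5 in DP. All mScarlet-negative libraries, at 108 CPM or more, lay above all mScarlet-positive libraries, at 103 CPM or less. The log2 fold change was −0.59 (SE 0.11, adjusted p = 0.00386 by edgeR). Ppan, a homologue of a yeast factor of large subunit rRNA processing (Entrez 235036, chromosome 9 from 20888175 to 20892179, plus strand), showed the same separation. Ppan was at 76.3, 53.2, 59.0 and 56.3 CPM in DN libraries 1 to 4 and 61.6, 63.0, 55.5 and 72.1 in GFP, against 44.1, 51.9, 42.3 and 44.3 in mScarlet and 42.0, 49.6, 42.6 and 39.5 in DP. The highest mScarlet-positive library, mScarlet 2 at 51.9 CPM, lay just under the lowest mScarlet-negative one, DN 2 at 53.2 CPM (log2 fold change −0.48, SE 0.10, adjusted p = 0.00821 by edgeR). The call held in all 26 alternative fits for both, with adjusted p from 7.54e-06 to 0.0124 for Grwd1 and from 6.11e-05 to 0.0393 for Ppan.

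Pes1, with Bop1 and Wdr12 a subunit of the PeBoW complex that processes large subunit rRNA (Entrez 64934, chromosome 11 from 3963975 to 3980004, plus strand), had a small difference with a small error. Pes1 was at 177, 138, 138 and 152 CPM in DN libraries 1 to 4 and 134, 126, 128 and 107 in GFP, against 118, 118, 117 and 113 in mScarlet and 104, 107, 101 and 110 in DP. DN lay above all other groups and the 4 mScarlet libraries spanned 113 to 118 CPM, with GFP library 4 below them. Its level was 0.812 times that of mScarlet-negative cells (log2 fold change −0.30, SE 0.08, adjusted p = 0.0264 by edgeR). The other subunits of PeBoW were at −0.22 (Bop1, SE 0.11, adjusted p = 0.207 by edgeR) and −0.35 (Wdr12, SE 0.17, adjusted p = 0.221 by edgeR). Nop2, a cytosine methyltransferase of large subunit rRNA (Entrez 110109, chromosome 6 from 125131883 to 125144753, plus strand), and Nip7, a factor that binds it (Entrez 66164, chromosome 8 from 107056877 to 107060931, plus strand), changed by similar amounts. Nop2 was at 210, 174, 166 and 141 CPM in DN libraries 1 to 4 and 153, 138, 147 and 130 in GFP, against 119, 133, 126 and 141 in mScarlet and 113, 121, 132 and 103 in DP. Nip7 was at 103, 104, 83.4 and 120 CPM in DN libraries 1 to 4 and 89.2, 87.7, 80.6 and 84.3 in GFP, against 70.0, 77.2, 79.2 and 74.8 in mScarlet and 62.9, 82.5, 68.5 and 69.8 in DP. In both genes DN held the highest library and DP the lowest, and the GFP and mScarlet libraries overlapped for Nop2 but not for Nip7. The log2 fold changes were −0.34 for Nop2 (SE 0.09, adjusted p = 0.0297 by edgeR) and −0.36 for Nip7 (SE 0.09, adjusted p = 0.0197 by edgeR).

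The calls of Pes1 and Nop2 depended on single libraries, as that of Odc1 did. That of Pes1 was lost without DN library 1 (0.0527), DP library 1 (0.0554) or DP library 3 (0.0515) and without the filter on low counts (0.0502), and over 26 alternative fits its adjusted p ran from 1.30e-04 to 0.0554. That of Nop2 was lost without DN library 1 (0.0548), mScarlet library 1 (0.0542), mScarlet library 2 (0.0508) or DP library 1 (0.0624) and without both GFP libraries 1 and 4 (0.0697), with a range from 0.00134 to 0.0697. Nip7 lost its call only without both GFP libraries 1 and 4 (0.0672). Nop16, a further large subunit factor, was at −0.23 (SE 0.11, adjusted p = 0.215 by edgeR). Rrs1, which brings the small 5S RNA particle into the large subunit (Entrez 59014, chromosome 1 from 9545408 to 9547455, plus strand), did not follow the others. Rrs1 was at 18.7, 17.7, 25.3 and 21.2 CPM in DN libraries 1 to 4 and 32.6, 16.2, 20 and 27.8 in GFP, against 16.0, 14.4, 12.4 and 28.9 in mScarlet and 27.4, 16.3, 23.3 and 30.6 in DP. It was highest in GFP library 1 and lowest in mScarlet library 3 and overlapped between all groups. Its log2 fold change was −0.10 (SE 0.20) for mScarlet-positive against mScarlet-negative cells, turning to 0.11 without both GFP libraries 1 and 4.

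**Figure D2:**
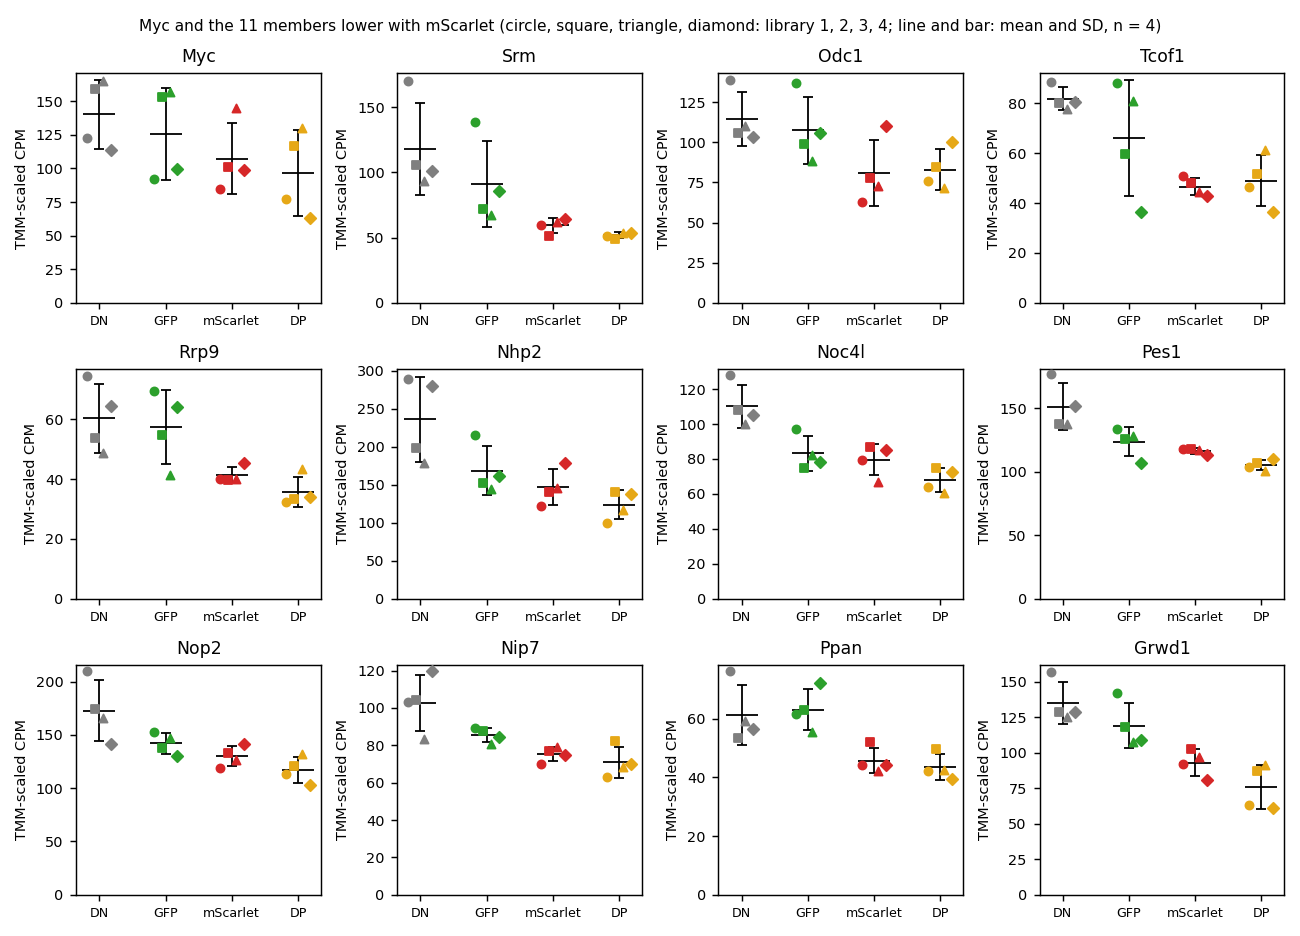
TMM-scaled CPM of Myc and of the 11 members called lower with mScarlet in every library of the 4 groups; symbols mark library numbers 1 to 4, and lines and bars give the mean and SD (n = 4). Srm, Ppan and Grwd1 are the 3 members whose 8 mScarlet-positive libraries all lie under the 8 mScarlet-negative ones, as do 1.03% of all tested genes.

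The comparisons of mScarlet with DN and of DP with GFP share no library, and give the mScarlet difference without and with GFP. They do share the fit over 16 libraries and its estimate of spread, and the library numbers. In mScarlet against DN, 33 of 37 members were negative (50.3% of all genes), with a median of −0.42, and 1 was called, Srm (log2 fold change −0.99, SE 0.22, adjusted p = 0.0426 by edgeR), where 0.695% of all genes were called lower and 1.18% in either direction. The Srm call held in 15 of 27 alternative fits (adjusted p 0.00175 to 0.174) and was lost without any 1 of 11 libraries (all mScarlet and DP libraries and DN 1, 2 and 4), and also with GC content corrected (0.0521). DESeq2 called 8 members lower, against 5.63% of all genes it called in either direction. The 4 mScarlet libraries lay below the 4 DN libraries for 12 members, against 6.06% of all genes. In DP against GFP, 32 of 37 were negative (53% of all genes), with a median of −0.28, and none was called, where 0.363% of all genes were called lower and 0.564% in either direction. Of the 37, 8 had an unadjusted p under 0.05 (15.9% of all genes), DESeq2 called 4 (6.81% of all genes), and the libraries did not overlap for 6 (4.58% of all genes). Grwd1 came closest (log2 fold change −0.65, SE 0.15, adjusted p = 0.0614 by edgeR), followed by Rrp9 (−0.69, 0.0765), Ppan (−0.54, 0.0809) and Srm (−0.81, 0.0854). Negative values in both comparisons were found for 28 of 37 members and positive values in both for 0, and 35.9% of all genes were negative in both.

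With the library number as a block, more members passed. In mScarlet against DN there were 8 calls (Srm, Tcof1, Nhp2, Noc4l, Pes1, Nop16, Nip7 and Grwd1), all lower, against 2.9% of all genes, with adjusted p from 0.00853 (Srm) to 0.0476 (Pes1). In DP against GFP there were 4 (Srm, Rrp9, Ppan and Grwd1), all lower, against 2.96% of all genes. Of the members, Srm and Grwd1 were thus called in both comparisons under the block. The edgeR adjusted p for Grwd1 was 0.0423 in mScarlet against DN and 0.0202 in DP against GFP, and that for Srm was 0.00853 and 0.0279. Over both comparisons together, 15 members were called lower under the block, against 7.73% of all genes: the 11 called without it and Myc, Cad, Mybbp1a and Rrp12.

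**Figure D3:**
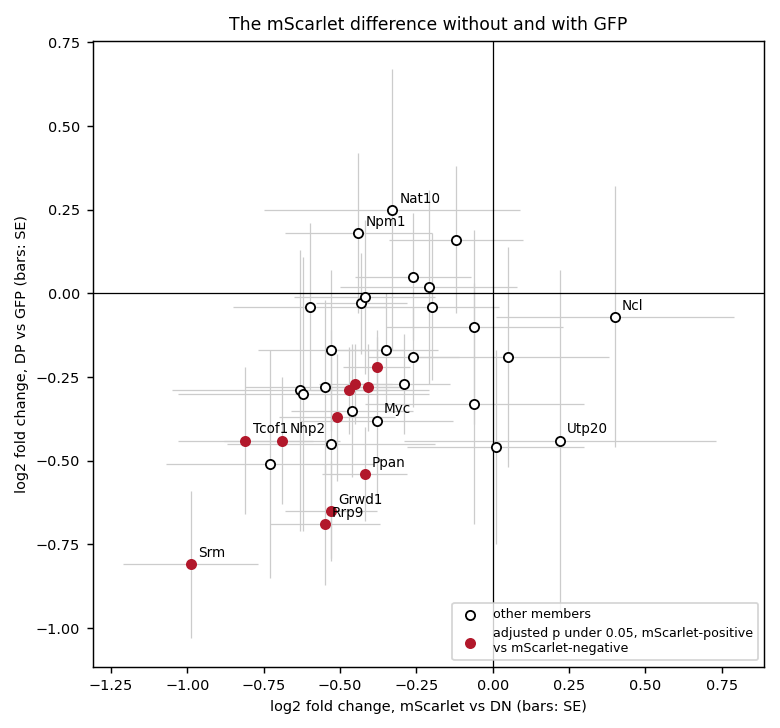
Log2 fold change of each of the 37 members in mScarlet against DN (horizontal) and in DP against GFP (vertical), which share no library; bars are standard errors. The 28 members with both values below 0 lie at the lower left, with Srm lowest in both, and no member has both above 0.

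DP against DN, the comparison of cells with both reporters and with neither, gave the largest differences. Of 37 members, 8 (21.6%) were called lower and none higher, with 1.71% of all genes called lower and 2.32% in either direction. Negative values were found for 34 members and 48.2% of all genes, and the medians were −0.46 and 0.02. The 8 were Grwd1, Srm, Noc4l, Nhp2, Pes1, Rrp9, Nop2 and Nip7. Srm in DP was at 0.441 times its DN level (log2 fold change −1.18, SE 0.22, adjusted p = 0.0103 by edgeR), Nhp2 at 0.524 times (−0.93, SE 0.19, adjusted p = 0.0163 by edgeR) and Grwd1 at 0.561 times (−0.83, SE 0.15, adjusted p = 0.00972 by edgeR). All 4 DP libraries lay below all 4 DN libraries for 16 members, against 7.37% of all genes. Grwd1 kept its call in all 27 alternative fits (adjusted p 3.22e-05 to 0.0491), and Srm lost its call without DN library 1 (0.0506). The number of calls depended on single libraries: leaving out DN library 1 left 1, DN 2 left 5, DN 4 left 4, DP 1 left 2, DP 2 left 5, DP 3 left 3 and DP 4 left 5. The share of all genes called was not counted for these fits. With library number as a block, 16 members were called lower, against 3.9% of all genes, and these included Myc (log2 fold change −0.57, adjusted p = 0.0188 by edgeR), Cad (−0.72, 0.0451), Mybbp1a (−0.62, 0.0278) and Rrp12 (−0.80, 0.0374). DP shares its libraries with the comparisons above, so this is no separate support.

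The GFP gate alone made smaller differences. GFP against DN had no called member, with 7 of 37 at an unadjusted p under 0.05 (9.72% of all genes) and no call by DESeq2, and no gene of all those tested was called by edgeR (0%). Negative values were found for 30 of 37 members and 47.7% of all genes, with a median of −0.24 for the members, and Noc4l had the smallest p (log2 fold change −0.41, SE 0.13, adjusted p = 0.415 by edgeR). DP against mScarlet had no called member, 0 at an unadjusted p under 0.05 (2.88% of all genes), a median of −0.08 and 0% of all genes called. These comparisons share no library, and 20 members were negative in both, against 28.2% of all genes. GFP against mScarlet had no called member by edgeR (1.53% of all genes were called, 1.06% higher), 6 at an unadjusted p under 0.05 (19.2% of all genes), and 1 by DESeq2 (10.5% of all genes). In that comparison 32 of 37 were positive, where 48.9% of all genes were negative, with a median of 0.18, and for 4, Srm, Nip7, Ppan and Grwd1, every GFP library lay above every mScarlet library, against 5.22% of all genes. The smallest adjusted p was that of Ppan (0.47, SE 0.14, adjusted p = 0.0899 by edgeR). Averaged over both mScarlet states, GFP-positive against GFP-negative cells gave no call among the members by edgeR or DESeq2. Among all genes, edgeR called none (0%). In this comparison 6 members were at an unadjusted p under 0.05 (9.72% of all genes), and the members' median was −0.15. Noc4l again had the smallest adjusted p (log2 fold change −0.32, SE 0.09, adjusted p = 0.292 by edgeR), and Rrs1 the largest positive value (0.33, SE 0.20, adjusted p = 0.661 by edgeR). The test of whether the GFP difference depended on mScarlet had no member under an unadjusted p of 0.05 (3.29% of all genes). None was called by edgeR (0% of all genes) or DESeq2. For GFP against DN, for the averaged GFP comparison and for this term, the share of all genes called by DESeq2 was not counted. The median of that term was 0.18 for the members and −0.04 for all genes. The 95% interval of that term ran from −0.49 to 0.85 for Srm and from −0.76 to 0.78 for Myc, which leaves room for differences as large as the measured ones.

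The order of the 4 group means was DN, GFP, mScarlet, DP from high to low for 17 of 37 members, among them Myc, Srm, Rrp9, Nhp2, Noc4l, Pes1, Nop2, Nip7 and Grwd1. The share of all tested genes with this order was not counted, and no mean over other genes was set beside those that follow. The mean log2(CPM + 1) over the 37 was 5.73 ± 0.12 in DN and 5.52 ± 0.25 in GFP, against 5.36 ± 0.02 in mScarlet and 5.30 ± 0.11 in DP (SD, n = 4). Neighbours in that order overlapped, while all 4 DN libraries (5.61 to 5.90) lay above all 8 mScarlet-positive libraries (5.16 to 5.42). GFP library 1 was at 5.79 and GFP library 4 at 5.20, below all 4 mScarlet libraries, and these are the GFP libraries with the most macrophage and the most acinar and fibroblast marker reads. Of the 7 roles, the large subunit factors alone had all mScarlet-negative libraries (6.10 or more) above all mScarlet-positive ones (6.05 or less), with means of 6.34 ± 0.07 and 6.19 ± 0.10 in DN and GFP against 5.94 ± 0.10 and 5.93 ± 0.02 in mScarlet and DP. Library number 4 was the lowest of its group in all 4 groups for 6 members (Cad, Pprc1, Mybbp1a, Polr1a, Heatr1 and Rrp12), as for 3.36% of all genes. Number 2 was so for Fbl (0.733% of all genes), and numbers 1 and 3 for no member (3.6% and 0.977%).

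The members that were called were among the more abundant ones, and the shares of all genes given beside the counts were not matched for abundance. All 11 had a mean over the 16 libraries of at least 48.6 CPM (Rrp9 the lowest), and their SEs were 0.08 to 0.16. At or above that level lay 20 members in all, so 9 abundant members, Mybbp1a, Bop1, Myc, Cad, Pprc1, Nop56, Nop16, Nob1 and Nolc1, were not called. The 17 members below it had SEs of 0.12 to 0.36 (median 0.21), and none was called. By GC content of the transcript, 6 of 12 members over 55% were called, 4 of 14 at 50 to 55%, 1 of 4 at 45 to 50% and 0 of 7 under 45%. Median levels ran the same way, from 13.1 CPM in the members under 45% GC to 66.4 CPM in those over 55%. The median log2 fold change of the members was −0.19 under 45% and −0.48 over 55%, where the medians of all genes were 0.13 and −0.10. With GC content corrected in the model, 11 members were again called.

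Several members are host genes, which carry snoRNAs within their own transcription unit. In the GENCODE annotation of GRCm38, 8 of 37 members (21.6%) held at least 1 annotated snoRNA gene on their own strand (Odc1, Ncl, Gnl3, Nop56, Nop58, Dkc1, Wdr43 and Ppan), against 260 of 20085 protein-coding genes (1.29%). Of these 8 hosts, Odc1 and Ppan were called lower, and Ncl and Wdr43 were the 2 members with positive values. Exons of 9 members overlap exons of a gene on the opposite strand. Among the called genes these are Nhp2 (42 bases shared with Rmnd5b), Pes1 (138 bases with 4930556J24Rik) and Grwd1 (50 bases with Gm45441), and reads there cannot be assigned to a strand because the labels do not say whether counting used the strand.

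Fewer genes of the same pathways outside the 37 were called. Of 40 other small subunit assembly genes, 3 were called lower with mScarlet and none higher (median −0.12): Noc2l (log2 fold change −0.46, SE 0.10, adjusted p = 0.00832 by edgeR), Rcl1 (−0.41) and Utp4 (−0.40). Of 39 other large subunit assembly genes, none was called (median −0.06), nor were any of 11 other RNA polymerase I genes (median −0.01) or 8 other snoRNP genes (median −0.16). For comparison, 5.21% of all genes were called lower. Both sets of genes were drawn up with results of these data known, and the difference between them was not tested. In the MYC/MAX network, 4 of 18 tested genes fell (Ruvbl2, −0.59; Ruvbl1, −0.47, both ATPases that act with MYC; Bin1, −0.53, a protein that binds MYC; Mxi1, −0.66, an antagonist that competes for MAX) and 1 rose (Mxd4, 0.40, also an antagonist). Their median was −0.13.

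Several biosynthetic genes linked to MYC were called. Of 22 genes of nucleotide and one-carbon synthesis, 7 fell and 1 rose (median −0.37). The largest were the mitochondrial folate enzymes Mthfd1l (log2 fold change −1.35, SE 0.23, adjusted p = 0.0024 by edgeR), at 33.7 ± 12.1 CPM in DN and 9.9 ± 3.55 in DP (SD, n = 4), and Mthfd2 (−1.25, SE 0.30, adjusted p = 0.0171 by edgeR). Thymidylate synthase, Tyms, was at −0.77 and the serine enzyme Shmt2 at −0.55, while Ppat, the first enzyme of purine synthesis, rose (0.59). In the polyamine route, 2 of 11 further genes fell (median −0.15), the hypusine enzyme Dohh (−0.37, SE 0.09, adjusted p = 0.0173 by edgeR) and the antizyme Oaz2 (−0.39). Eif5a, the translation factor that carries hypusine, which is made from spermidine, also fell (−0.55, SE 0.11, adjusted p = 0.00738 by edgeR), from 2300 ± 523 CPM in DN to 1320 ± 123 in DP (SD, n = 4). With Rcc1 (−0.89) it made 2 of 18 genes of MYC-linked translation and folding, whose median was −0.22.

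**Figure D4:**
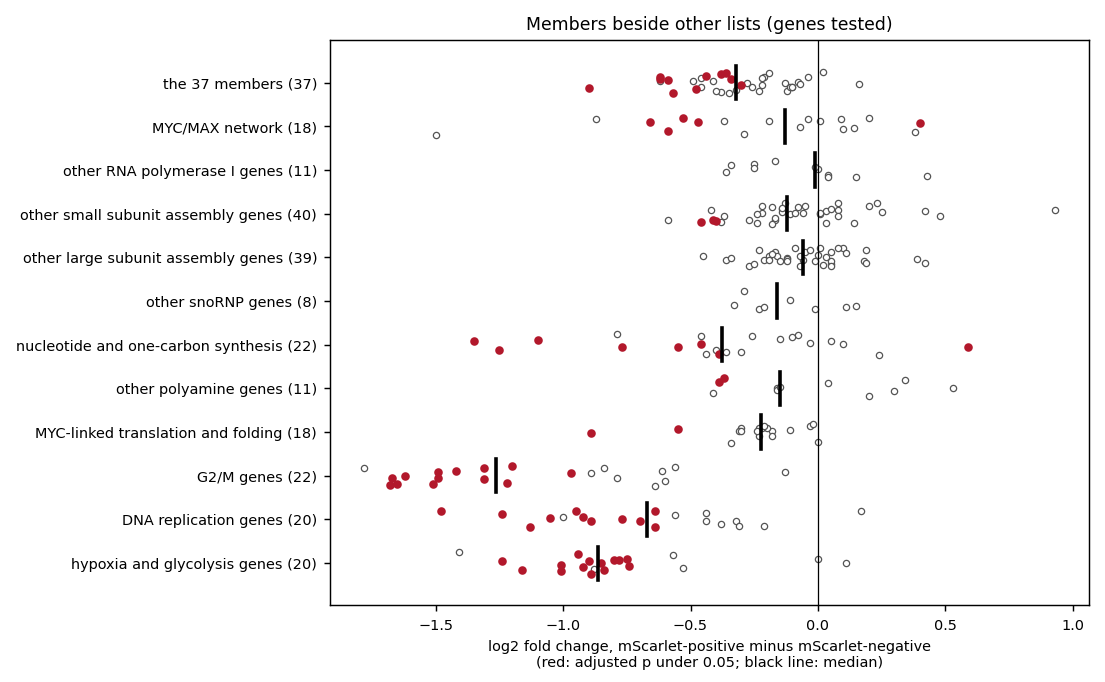
Log2 fold change in mScarlet-positive minus mScarlet-negative cells for each tested gene of the 37 members and of 11 further lists (number of genes in brackets); filled points passed the edgeR threshold and black lines are medians. The median is −0.32 for the members, −0.06 to −0.16 for the other subunit assembly and snoRNP genes, and −1.27 for the G2/M genes.

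Proliferation genes also fell in the same comparison. Of 22 G2/M genes, 13 were called lower and none higher (median −1.27), led by Cdc20 (log2 fold change −1.51, SE 0.20, adjusted p = 5.44e-04 by edgeR), an activator of mitotic exit. Of 20 DNA replication genes, 11 were lower and none higher (median −0.67). The summed G2/M level was 485 to 1020 CPM in DN and 351 to 919 in GFP, against 196 to 346 in mScarlet and 151 to 298 in DP, so that all mScarlet-positive libraries were below all mScarlet-negative ones. Of 20 hypoxia and glycolysis genes, 14 were lower and none higher (median −0.86), with Pkm, pyruvate kinase, at −0.89 (SE 0.11, adjusted p = 5.44e-04 by edgeR) and Ldha, lactate dehydrogenase, at −0.84. Of the 10 pancreatic cancer epithelium markers, 2 were called higher with mScarlet and none lower, and their sum was 26000 to 28900 CPM in DN and 16100 to 32000 in GFP, against 29300 to 45400 in mScarlet and 28700 to 37600 in DP. Markers of other cells moved too: 5 of 10 fibroblast markers were called lower with mScarlet, and their sum was 136 to 1430 CPM in DN and 608 to 9150 in GFP but 17.7 to 88.9 in mScarlet and 27.1 to 273 in DP. None of the 10 macrophage, 10 acinar or 6 neutrophil markers was called, and no marker of any list was at 0 in all libraries. The part of these genes and cells in the differences of the members was not tested. Without both GFP libraries 1 (most macrophage reads) and 4 (most acinar reads), 7 members were called in place of 11. The share of all genes called in that smaller fit was not counted. The members' median log2 fold change was between −0.37 and −0.29 over all 26 alternative fits.

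**Figure D5:**
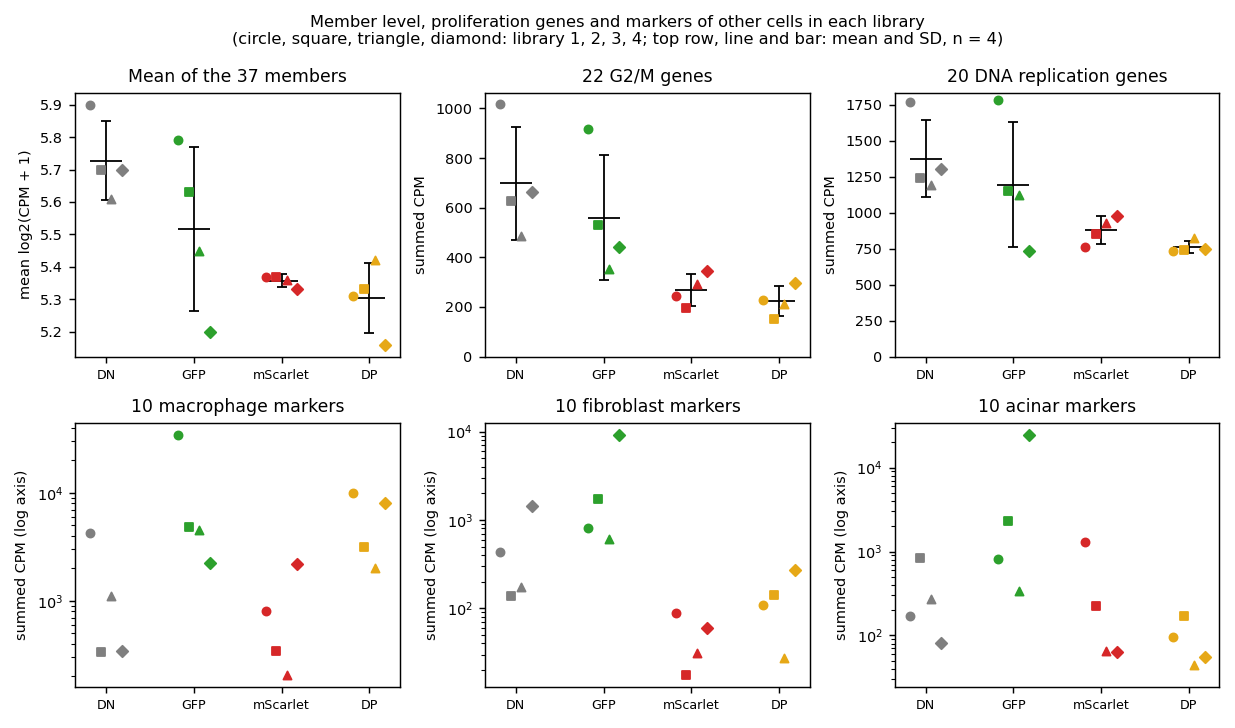
Per library, the mean log2(CPM + 1) of the 37 members, the summed CPM of the G2/M and DNA replication genes (top row, with mean and SD, n = 4), and the summed CPM of macrophage, fibroblast and acinar markers (bottom row, log axis). The members' mean, the G2/M sum and the fibroblast sum are low in mScarlet and DP. GFP library 1 holds the highest macrophage sum, and GFP library 4 the highest acinar sum.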

How the data were processed

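RNA was extracted with a micro kit from sorted cells, and low-input full-length cDNA was amplified by PCR and sequenced as paired reads, per the labels' protocols. The authors deposited raw read counts per Entrez gene, with no molecular identifiers. The submitters' processing notes name GRCm38/mm10, STAR and DESeq2 1.24.0 without their roles. The counter, its annotation and any use of strand were not stated. Rows without a gene symbol (30, with 0.723 to 1.93% of the counts) were kept under their identifier.

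Counts were filtered with filterByExpr (15963 genes kept), scaled by TMM and fitted over all 16 libraries with the quasi-likelihood test (two-sided) of edgeR 4.0.16 in R 4.3.3, with group as the only term. P-values were adjusted by Benjamini-Hochberg over all genes tested, and called means an adjusted p under 0.05. The fit was also run on simulated counts with 1 fixed spread and no effect of library number, so it does not cover those features of these libraries. Alternatives were DESeq2 1.42.0, other scalings and filters, the replicate block, the 2 groups alone, and leaving out libraries. The 37 members and all other lists were chosen with earlier results of these data known. Values in every library are given for Myc and 11 other members set by name, for each member called in any comparison, and for the largest rise and fall over mScarlet and over GFP. Up to 4 genes per further list are named, those called with the smallest adjusted p; Ppat and Mxd4, the only risers of their lists, were named after their values were seen. No 2 libraries of a group differed by as little as sampling noise. P-values measure the spread between libraries, and PCR reads are not independent molecules.

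The library numbers are shared by the groups, but whether a number marks a common mouse or day is not stated. Deviations from the group means correlated above 0.1 in 23 of 24 same-number pairs (median 0.29, lowest 0.092, for number 4 of GFP and mScarlet). Each of the 16 libraries correlated best with a library of its own number, and the median over different numbers was −0.14. The main fit left the numbers out, and the fit with the block used them in every comparison.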

Additional observations from a re-analysis of the deposited data

Results flagged for a closer look

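Among the 84 groups of 4 libraries of the members given in full, 6 held a library that stood apart from the other 3 by Dixon's test, where chance flags about 1 group in 20. Srm was at 170 CPM in DN library 1 (93.6 to 106 in the others), and Grwd1 at 157 CPM in the same library (125 to 129). Fbl was at 46.0 CPM in mScarlet library 4 (30.5 to 32.0 in the others) and at 44.4 CPM in DP library 4 (31.2 to 32.7). Rrp9 was at 45.2 CPM in mScarlet library 4 (39.8 to 40.1 in the others) and at 43.2 CPM in DP library 3 (32.2 to 33.9).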

How the results depend on the processing

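The median log2 fold change of the 37 members kept its sign in all 9 comparisons under every alternative. The number of members called moved. The shares of all genes called with DESeq2 and with the block are given above. Under the other settings those shares were not counted. Whether the members' counts there moved with the calls over all genes was not tested. In mScarlet against DN it was 1, and became 8 with DESeq2, 8 with the replicate block, 2 with the 2 groups alone, 3 without both GFP libraries 1 and 4, 0 with GC content corrected and 10 with the block and GC together. In DP against GFP it was 0, and became 4 with DESeq2, 4 with the block, 4 with edgeR's newer dispersion method and 3 with the block and GC. In DP against DN it was 8, and became 16 with the block and 18 with the block and GC. In GFP against mScarlet it was 0, and became 1 with DESeq2 and 1 with the block and GC. For mScarlet-positive against mScarlet-negative cells it was 11, and became 15 with the block, 20 with the block and GC, and 7 without both GFP libraries 1 and 4. Leaving out 1 library at a time gave 0 to 3 calls in mScarlet against DN, 0 to 3 in DP against GFP, 1 to 10 in DP against DN, 8 to 12 for mScarlet-positive cells and 0 elsewhere. The sign reversed for Rrs1 (0.11 without both GFP libraries 1 and 4), Ncl (−0.03 with the block and GC) and Polr1a (0.04 without GFP library 2, 0.03 without DP library 4, and from −0.20 to 0.04 over all fits without 1 library). Of the members near 0, Wdr43 turned to −0.01 with DESeq2 and with RLE scaling, −0.07 without both GFP libraries 1 and 4, and −0.11 with GC content corrected, with or without the block. Utp20 turned to 0.02 with limma voom and 0.05 with the block. Nat10 turned to 0.13 with limma voom and 0.07 with the block, with or without GC. Leaving out 1 library gave −0.05 to 0.13 for Wdr43, −0.28 to 0.06 for Utp20, −0.22 to 0.12 for Nat10 and −0.19 to 0.00 for Ddx21. The causes were not tested. The newer dispersion method and both GC corrections were added after seeing the data. The 17 members under 48.6 CPM had a median SE of 0.21, and what part of it comes from depth was not tested.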
